A study of Rattus norvegicus with 15 samples.

Results

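Hearts of rats with diabetes and glucose fluctuation (GF) were compared with hearts of vehicle-treated control rats by their microRNA (miRNA) profiles. The comparison used the 10 arrays whose titles name them as GF (replicates 1, 2, 4, 5 and 6) or vehicle (control replicates 1 to 5), out of 15 arrays in the series, and every rat miRNA on the array. Of 350 miRNAs, 165 were bright enough to be tested. All rats were male Sprague-Dawley animals, and whole heart RNA was measured. Control rats received vehicle. GF rats were made diabetic with streptozotocin (60 mg/kg, into a vein), reached plasma glucose over 300 mg/dL, and were then starved for 24 h and given insulin into the peritoneum (0.5 IU/kg). A diabetic group (DM; 5 arrays) had streptozotocin without the fast and the insulin, and its samples also enter the fit's estimate of the spread. GF and control rats therefore differed by 3 things at once, diabetes, a fast and insulin, and their parts cannot be told apart. The age of the animals and the time between insulin and sampling are not given in the sources used here, nor do those sources say whether arrays came from different animals, so the p-values below refer to variation among arrays as deposited, part of which may be technical.

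MiRNAs are short RNAs that a protein complex uses to find messenger RNAs and lower their output. The seed, bases 2 to 8 from the 5′ end, does most of the pairing, so miRNAs that share a seed share many predicted targets. Many are cut from hairpins that lie together in the genome, and a hairpin can give a mature miRNA from each arm. In the heart, miR-1, miR-133 and miR-208 are made mainly by cardiac muscle, miR-126 by endothelium, and miR-142 and miR-223 by blood-derived cells.

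Between GF and control hearts, 13 of 165 miRNAs passed a Benjamini-Hochberg adjusted p of 0.05 in limma (7.88%), of which 5 were higher in GF (3.03%) and 8 lower (4.85%). Their mature sequences are shown with the seed in capitals, since miRNAs with the same seed are set beside them below. The sequences are RefSeq's for the GRCr8 assembly. The first 5 rose in GF.

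miR-200c: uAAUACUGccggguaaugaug
miR-141: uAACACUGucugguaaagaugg
miR-20a: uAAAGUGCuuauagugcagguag
miR-19b: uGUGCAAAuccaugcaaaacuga
miR-101a: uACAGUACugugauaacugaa

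The next 8 fell in GF.

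miR-208: aUAAGACGagcaaaaagc
miR-142-5p: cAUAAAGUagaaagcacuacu
miR-181d: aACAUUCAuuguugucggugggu
miR-342-3p: uCUCACACagaaaucgcacccgu
miR-22*: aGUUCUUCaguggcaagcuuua
miR-146a: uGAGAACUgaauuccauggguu
miR-497: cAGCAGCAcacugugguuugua
miR-345-5p: uGCUGACCccuaguccagugc

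No seed occurred more than once among these 13. The miRNAs lie on 6 chromosomes of GRCr8. miR-200c (chr4:159209969-159209989, minus strand) and miR-141 (chr4:159209540-159209561, minus strand) are neighbours, as are miR-20a (chr15:98588318-98588340, plus strand) and miR-19b (chr15:98588486-98588508, plus strand). miR-19b has another copy on chromosome X, which the array cannot tell from this one. miR-208 (chr15:32395568-32395585, minus strand) lies within the span of Myh6, the gene of the alpha cardiac myosin heavy chain. miR-342-3p (chr6:133329715-133329737, plus strand) lies within Evl and miR-142-5p (chr10:73055119-73055139, plus strand) within Tspoap1. The gene table used does not say whether those positions are exonic or intronic. Chromosome 10 also holds miR-497 (chr10:55450172-55450193, plus strand), miR-22* (chr10:60805349-60805370, plus strand) and miR-146a (chr10:28350053-28350074, minus strand). miR-101a (chr5:121081691-121081711, minus strand), miR-345-5p (chr6:133518418-133518438, plus strand) and miR-181d (chr19:40888484-40888506, plus strand) complete the set.

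Some arrays repeated each other closely. In 5 of 105 pairs of arrays the miRNA signals differed by less than the scanner's stated error (reduced chi-square 0.243 to 0.630, against 1.07 to 7.70 in the other 100 pairs), and each such pair joined arrays of 1 group. They were averaged and counted as 1 sample, which left 4 control samples (replicates 1 and 3 averaged, 2, 4 and 5) and 3 GF samples (replicates 1 and 5 averaged, 2 and 4 averaged, and 6). Values below follow that order and are log2 signals after scaling between arrays, with a floor of 4.31. Repeats that differ by the stated error alone have a reduced chi-square near 1, so pairs just above 1 may be repeats too. Control replicate 5 stood apart from its group: its reduced chi-square to the other control arrays was 3.25 to 4.09, while those 4 arrays differed among themselves by 0.243 to 1.48. Its nearest DM array lay at 1.15. Because of that distance, counts are also given without it. It was also the control sample nearest to GF for 10 of the 13 miRNAs, so values without it are not independent of the GF difference, and larger differences or more calls there support nothing. The heart's own markers were bright in every sample: miR-133b and miR-1 were the brightest tested miRNAs, and the summed signal of 5 striated muscle markers was 124290 to 170740 in control and 114850 to 132780 in GF samples. The liver marker miR-122 lay at the floor in every sample.

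miR-200c and miR-141, which are abundant in epithelia and restrain the switch from epithelial to mesenchymal character, showed the largest differences. The miR-200c signal was 5.03, 4.94, 4.84 and 6.34 in the control samples and 8.13, 7.71 and 7.76 in GF. Every GF sample lay above every control sample, and control replicate 5 was the highest control. The difference was 2.58 ± 0.51 (SE; limma adjusted p = 0.0194), or 5.97-fold, and 2.93 without control replicate 5. The miR-141 signal was at the floor in 3 control samples, 5.25 in control replicate 5, and 7.23, 6.83 and 6.82 in GF. The groups again did not overlap (log2 difference 2.41 ± 0.47, SE; adjusted p = 0.0194), but only 2 of 5 control arrays were above background, so its size depends on the floor. Its dimmer probe differed by 0.20, with no control array above background, whereas the probes of miR-200c gave 2.58 and 2.59. With the normexp background correction the differences were 1.43 for miR-200c and 1.08 for miR-141, and both passed; the mean of its probes gave 1.31 for miR-141.

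Other members of that family lay near the floor. miR-200a was 4.31, 4.31, 4.31 and 4.57 in control and 4.72, 4.31 and 4.31 in GF, and miR-200b was much the same. Neither passed the threshold (adjusted p = 0.824 and 0.960). These miRNAs come from another locus, and their samples sit at or near the floor. Of 10 epithelial markers, 6 (miR-429, miR-205, miR-203, miR-182, miR-183 and miR-96) lay at the floor in all samples. The summed signal of the 10 was 207 to 285 in control, 481 to 598 in GF and 261 to 563 in DM samples. Each marker adds at least the floor, 19.8 in linear signal. miR-200c and miR-141 are among the 10, so the sum is not separate from their values. Whether epithelial cells had a part in the miR-200c and miR-141 values was not tested.

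**Figure D1:**
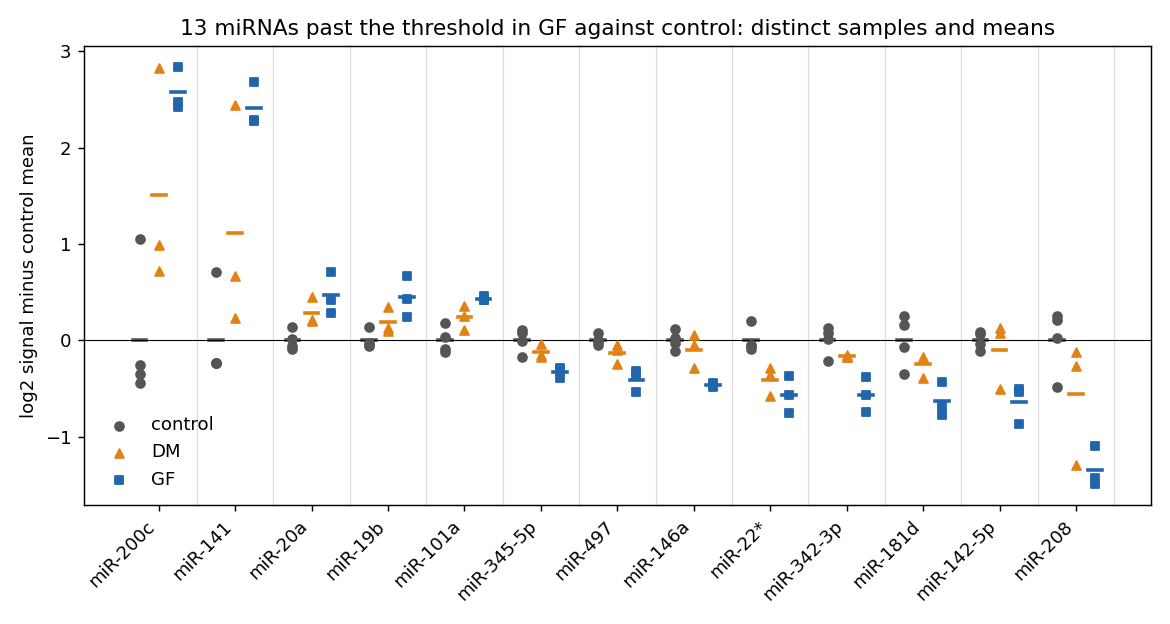
Log2 signal of the 13 miRNAs past the threshold, each drawn minus its control mean, in the 4 control, 3 DM and 3 GF samples (points) with the group means (bars). miR-200c and miR-141 stand 2.58 and 2.41 above control in GF, miR-208 stands at -1.34, and the DM mean lies between the control and GF means for all 13, as it does for 85 of all 165 tested.

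miR-208 fell most among the miRNAs past the threshold. It is made by cardiac muscle cells together with the myosin heavy chain mRNA of its host gene and takes part in the choice between fast and slow myosin. Its signal was 11.846, 11.796, 11.609 and 11.104 in control and 10.156, 10.097 and 10.486 in GF. The groups did not overlap, and control replicate 5 was the lowest control. The difference was -1.34 ± 0.28 (SE; limma adjusted p = 0.0194), and -1.50 without control replicate 5. Its other probe gave -1.45.

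Other striated muscle miRNAs were lower by smaller amounts and missed the threshold over distinct samples. miR-133b, which with miR-133a restrains growth of cardiac muscle cells, differed by -0.32 (adjusted p = 0.0910) and miR-133a by -0.34 (adjusted p = 0.126). miR-499, the miRNA of another myosin gene, was 12.18, 11.99, 12.27 and 11.99 in control and 11.85, 11.87 and 12.03 in GF, a difference of -0.19 (adjusted p = 0.194). miR-1, a miRNA of heart and skeletal muscle, differed by -0.14 (adjusted p = 0.473). All 5 lay below 0, as did 97 of all 165 tested. The list's median was -0.32, beside -0.055 over all tested, and 1 of 5 fell, beside 4.85% of all tested. With no scaling between arrays the list's median was 0.0022, beside 0.24 over all tested. The list's median thus lay below that of all tested either way, but whether it lay below 0 depended on the scaling. In bulk tissue, fewer cells of a type and less of a miRNA per cell cannot be told apart.

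The miR-17 cluster, a run of 6 hairpins on chromosome 15 that ends with miR-92a and promotes growth in many tissues, had higher values in GF in its brighter members. miR-20a was 9.427, 9.498, 9.390 and 9.622 in control and 9.767, 10.189 and 9.900 in GF. miR-19b was 10.34, 10.37, 10.35 and 10.53 in control and 10.64, 11.07 and 10.83 in GF. Neither overlapped, and both rose, by 0.47 ± 0.11 and 0.45 ± 0.11 (SE; limma adjusted p = 0.0367 and 0.0385). Their neighbours miR-92a (0.56), miR-17 (0.46) and miR-19a (0.38) had differences of like size without passing (adjusted p = 0.0551, 0.0611 and 0.0611). With 1 sample left out in turn, the adjusted p ran from 0.0158 to 0.207 for miR-92a, 0.0314 to 0.207 for miR-17 and 0.0201 to 0.219 for miR-19a. For the pair that passed it ran from 0.0224 to 0.140 (miR-20a) and from 0.0243 to 0.151 (miR-19b). miR-17, miR-19b and miR-92a are also encoded on chromosome X, so their signals cannot be assigned to chromosome 15 alone. miR-92a was 9.86, 9.73, 9.95 and 10.11 in control and 10.30, 10.66 and 10.45 in GF, with no overlap. miR-18a (0.058) and miR-20a* (0.083) were at or close to the floor in every sample. GF replicates 2 and 4 were the highest sample for each of the other 5.

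The related cluster on chromosome 12 carries miRNAs with the same seeds, and their differences lay near or below 0. The sequences of 4 miRNAs with the seed of miR-17 show how alike they are.

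miR-17: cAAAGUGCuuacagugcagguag
miR-20a: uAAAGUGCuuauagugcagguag
miR-106b: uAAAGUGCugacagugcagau
miR-93: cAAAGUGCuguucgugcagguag

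miR-17 (chromosomes 15 and X) and miR-20a (chromosome 15) had differences of 0.46 and 0.47. miR-106b was 9.32, 9.19, 9.24 and 9.31 in control and 9.27, 9.33 and 9.26 in GF, a difference of 0.021 ± 0.066 (SE; limma adjusted p = 0.877). miR-93 was lower by -0.23 (adjusted p = 0.124), and miR-25, which shares the seed of miR-92a, differed by -0.055 (adjusted p = 0.592). Over both clusters, with miR-20a* left out, 2 of 9 tested miRNAs rose, beside 3.03% of all tested, and none fell, beside 4.85%. The median of the 9 was 0.38. The difference between the clusters was not tested.

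**Figure D2:**
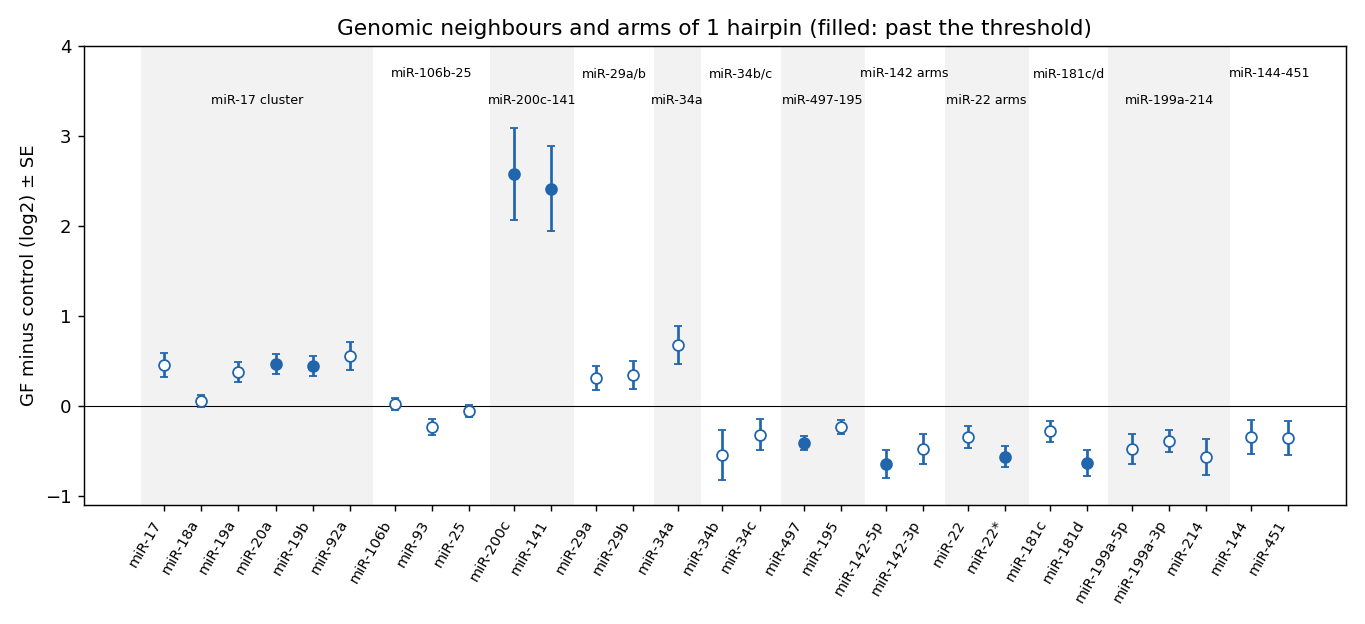
GF minus control (log2) with its SE for miRNAs that lie together in the genome or come from 1 hairpin, grouped by shaded or white bands; filled points passed the threshold. The drawn members of the miR-17 band other than miR-18a lie between 0.38 and 0.56 (miR-20a*, at 0.083, is not drawn), while the miR-106b-25 band lies between -0.23 and 0.021.

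miR-101a also rose. It is known to restrain the histone methyltransferase Ezh2 and, in heart fibroblasts, the factor Fos. Its signal was 10.84, 10.68, 10.72 and 10.98 in control and 11.23, 11.26 and 11.23 in GF, where the 3 samples lay within 0.02 (SD) of their mean. The groups did not overlap, and the difference was 0.43 ± 0.09 (SE; limma adjusted p = 0.0194). miR-101b, which has the same seed and lies on chromosome 1 within Rcl1, differed by 0.17 (adjusted p = 0.258).

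Of 7 leukocyte miRNAs, 3 fell, beside 4.85% of all tested. miR-342-3p was 7.51, 7.45, 7.56 and 7.22 in control and 6.87, 6.69 and 7.05 in GF (difference -0.57 ± 0.11, SE; limma adjusted p = 0.0194). miR-146a, which dampens signalling from innate immune receptors, was 10.91, 10.69, 10.82 and 10.77 in control and 10.34, 10.31 and 10.36 in GF (difference -0.46 ± 0.09, SE; adjusted p = 0.0194). No GF sample reached a control value for either.

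miR-142-5p, a miRNA of blood cells, was 6.69, 6.82, 6.61 and 6.79 in control and 6.22, 5.85 and 6.19 in GF (difference -0.64 ± 0.16, SE; limma adjusted p = 0.0367). The other arm of its hairpin, miR-142-3p, differed by -0.48 and missed the threshold (adjusted p = 0.0885). miR-223, a miRNA of granulocytes and monocytes, lay on the other side of 0, with 8.77, 9.13, 8.73 and 9.35 in control and 9.57, 9.61 and 9.35 in GF (difference 0.51, adjusted p = 0.0611). GF replicate 6 and control replicate 5 were level at 9.35. With 1 sample left out in turn its difference ran from 0.43 (without control replicate 4) to 0.63 (without control replicate 5), and the adjusted p from 0.0139 to 0.207. miR-150, a lymphocyte miRNA, differed by -0.0097 and miR-146b, which has the seed of miR-146a, by -0.15. The list's median was -0.46. The summed signal of 4 leukocyte markers (miR-142-3p, miR-142-5p, miR-150 and miR-223) was 4396 to 4645 in control and 3730 to 4399 in GF.

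Red cell and endothelial miRNAs were below 0 without passing. The red cell pair miR-144 and miR-451, cut from neighbouring hairpins, differed by -0.34 and -0.36. The summed signal of the pair was 6148 to 7350 in control, 4601 to 5937 in GF and 3447 to 6176 in DM samples. The endothelial miR-126 was 14.49, 14.22, 14.39 and 14.18 in control and 13.99, 13.88 and 13.99 in GF, with no overlap (difference -0.37, adjusted p = 0.0542, and 0.0254 to 0.200 with 1 sample left out in turn). Its other arm, miR-126*, differed by -0.28, and miR-221 by -0.38. The summed signal of miR-126 and miR-126* was 19241 to 23803 in control, 15654 to 16959 in GF and 17489 to 20783 in DM samples. With no scaling between arrays the medians of the red cell and endothelial lists were -0.0285 and -0.0451, beside 0.24 over all tested. The smooth muscle miRNAs miR-143 and miR-145 differed by 0.15 and 0.10. The part that the makeup of blood and vessel cells had in these values was not tested.

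miR-497 fell, from 11.40, 11.38, 11.35 and 11.48 in control to 11.03, 10.87 and 11.08 in GF (difference -0.41 ± 0.08, SE; limma adjusted p = 0.0194). It belongs to the miR-15 and miR-16 family, which slows the cell cycle, and its cluster partner miR-195, known to hold back division of heart muscle cells after birth, differed by -0.23 (adjusted p = 0.0870). The 5 tested miRNAs with this seed are shown because they differed in GF by unlike amounts.

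miR-497: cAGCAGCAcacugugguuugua
miR-195: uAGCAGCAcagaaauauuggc
miR-15b: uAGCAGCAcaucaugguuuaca
miR-16: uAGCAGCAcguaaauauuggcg
miR-322: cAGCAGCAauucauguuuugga

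miR-15b differed by -0.20 (adjusted p = 0.121) and miR-16 by -0.081 (adjusted p = 0.488). miR-322, from a cluster on chromosome X, was higher by 0.18 (adjusted p = 0.312). With miR-503, whose seed is slightly different and which differed by -0.39 (adjusted p = 0.278), 1 of 6 members fell, beside 4.85% of all tested, and the median was -0.22. It was 0.10 with no scaling.

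miR-181d fell, from 7.18, 6.96, 7.28 and 6.68 in control to 6.33, 6.25 and 6.59 in GF (difference -0.63 ± 0.15, SE; limma adjusted p = 0.0329). Control replicate 5 was the lowest control and lay just above GF replicate 6. miR-181c, its neighbour on chromosome 19, which is known to act on a mitochondrial transcript in heart muscle, differed by -0.28 (adjusted p = 0.126, and 0.0314 to 0.314 with 1 sample left out in turn). miR-181a and miR-181b, with the same seed, lie together on chromosome 13, with another copy of miR-181a on chromosome 3, and differed by -0.17 and -0.095. The family's median was -0.23, and 0.092 with no scaling.

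miR-22* and miR-22 come from the 2 arms of 1 hairpin, and miR-22 is among the brightest heart miRNAs and is known for a part in growth of heart muscle cells. miR-22* fell, from 8.43, 8.42, 8.68 and 8.39 in control to 7.92, 7.73 and 8.11 in GF (difference -0.56 ± 0.12, SE; limma adjusted p = 0.0194). miR-22 was 15.91, 15.46, 15.64 and 15.57 in control and 15.41, 15.11 and 15.38 in GF, with no overlap (difference -0.35, adjusted p = 0.0885). Of 20 hairpins with both arms tested, the arms differed from control in the same direction in 15. miR-30c counts for both of its hairpins, and some of these differences lay close to 0. The share for unrelated miRNAs was not worked out, so nothing is read from that count. miR-345-5p, from chromosome 6, fell from 9.69, 9.58, 9.65 and 9.41 to 9.28, 9.20 and 9.29 (difference -0.33 ± 0.08, SE; adjusted p = 0.0393). With no scaling between arrays its difference was -0.0080.

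**Figure D3:**
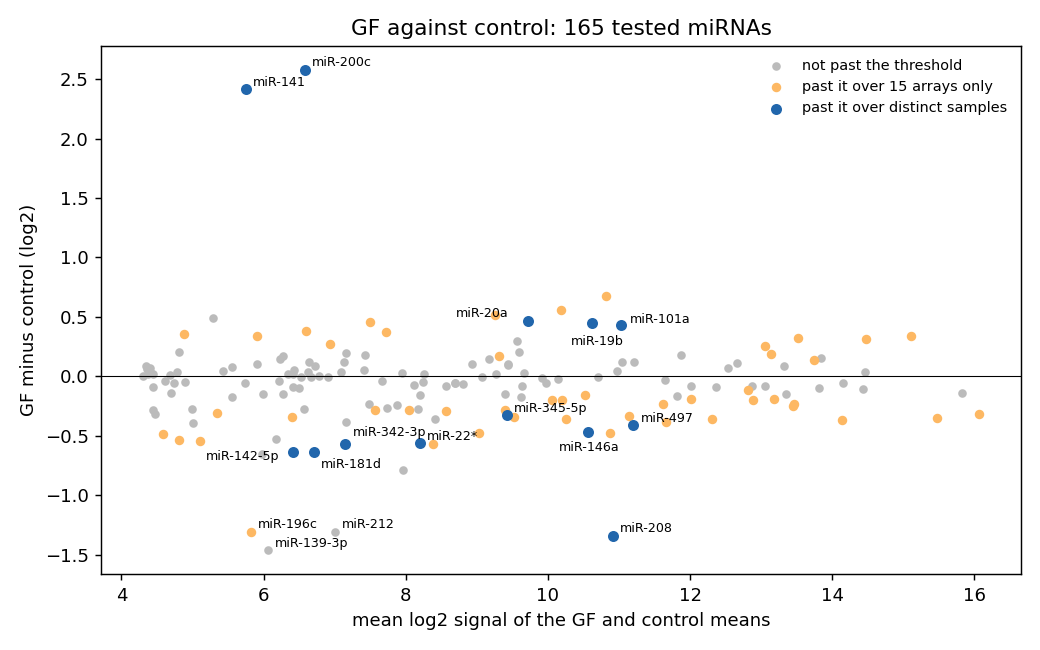
GF minus control (log2) against the mean log2 signal of the GF and control means for the 165 tested miRNAs. Blue points passed the threshold over distinct samples (13), orange points passed only with 15 arrays taken as independent (47), and the 3 other labelled miRNAs below -1 (miR-196c, miR-139-3p and miR-212) did not pass over distinct samples.

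Further large differences lay in miRNAs whose samples spread widely. miR-196c, from a Hox gene cluster, was 6.72, 6.67, 6.83 and 5.68 in control and 5.66, 5.53 and 4.31 in GF (difference -1.31 ± 0.37, SE; limma adjusted p = 0.0551). Control replicate 5 was the low control, at the level of GF replicates 1 and 5. The first control value averages arrays at 7.61 and 5.83, and with the close arrays as a random block the difference was -1.29 (adjusted p = 0.235). With 1 sample left out in turn it ran from -0.88 to -1.57, and the adjusted p from 0.0163 to 0.145. miR-139-3p and miR-212, chosen for naming after their values were seen, differed by -1.46 and -1.31 (adjusted p = 0.174 and 0.188). In each of them control replicate 5 was the lowest control and overlapped GF. The other Hox-cluster miRNAs, miR-10a-5p and miR-10b, differed by -0.078 and 0.20.

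In the miR-34 family, which acts downstream of p53 and rises in the ageing heart, members with 1 seed lay on both sides of 0.

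miR-34a: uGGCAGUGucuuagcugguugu
miR-34b: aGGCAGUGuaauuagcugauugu
miR-34c: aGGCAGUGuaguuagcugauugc

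miR-34a, from chromosome 5, was 10.25, 10.37, 10.27 and 11.00 in control and 11.10, 11.13 and 11.22 in GF. The groups did not overlap, control replicate 5 lay close below the lowest GF sample, and the difference was 0.68 ± 0.21 (SE; limma adjusted p = 0.0745). With 1 sample left out in turn it ran from 0.60 to 0.86, and the adjusted p from 0.0139 to 0.207. miR-34b and miR-34c, neighbours on chromosome 8, differed by -0.54 (adjusted p = 0.211) and -0.32 (adjusted p = 0.230), and miR-34c was at the floor in every GF sample. The difference between miR-34a and the others was not tested.

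The miR-29 family, which holds down collagen mRNAs, lay above 0 in all 3 members without passing. miR-29b was 15.01, 14.52, 14.94 and 15.25 in control and 15.47, 15.16 and 15.19 in GF, which overlapped, with a difference of 0.34 (limma adjusted p = 0.169) that was 0.21 without control replicate 2. miR-29a differed by 0.31 (adjusted p = 0.157), its other arm miR-29a* by 0.38 (adjusted p = 0.121) and miR-29c by 0.19 (adjusted p = 0.265). Among miRNAs abundant in fibroblasts or raised by stress, miR-214, miR-199a-5p and miR-199a-3p, from 1 region of chromosome 13, differed by -0.57, -0.48 and -0.39 (adjusted p = 0.0885, 0.0885 and 0.0733). miR-21 differed by 0.32 (adjusted p = 0.151). miR-199a-3p was 11.79, 11.82, 11.82 and 11.99 in control and 11.71, 11.27 and 11.42 in GF, with no overlap.

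Of the remaining lists, none held a miRNA past the threshold other than miR-22* among 19 star strands. Medians were -0.062 over 8 let-7 miRNAs, 0.046 over 5 miR-30 miRNAs, -0.10 over 5 miRNAs of the miR-23, miR-27 and miR-24 clusters, and 0.030 over miR-103 and miR-107. With no scaling between arrays the medians were 0.26 for let-7 and 0.22 for the miR-23, miR-27 and miR-24 clusters. Among the brightest miRNAs, let-7f differed by 0.038 and miR-23a by -0.10. Dim miRNAs that were lower included miR-9, with -0.54 (limma adjusted p = 0.0822), and miR-335, with -0.48 (adjusted p = 0.106). miR-326 and miR-296*, also dim, were higher by 0.34 and 0.36 (adjusted p = 0.161 and 0.216).

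**Figure D4:**
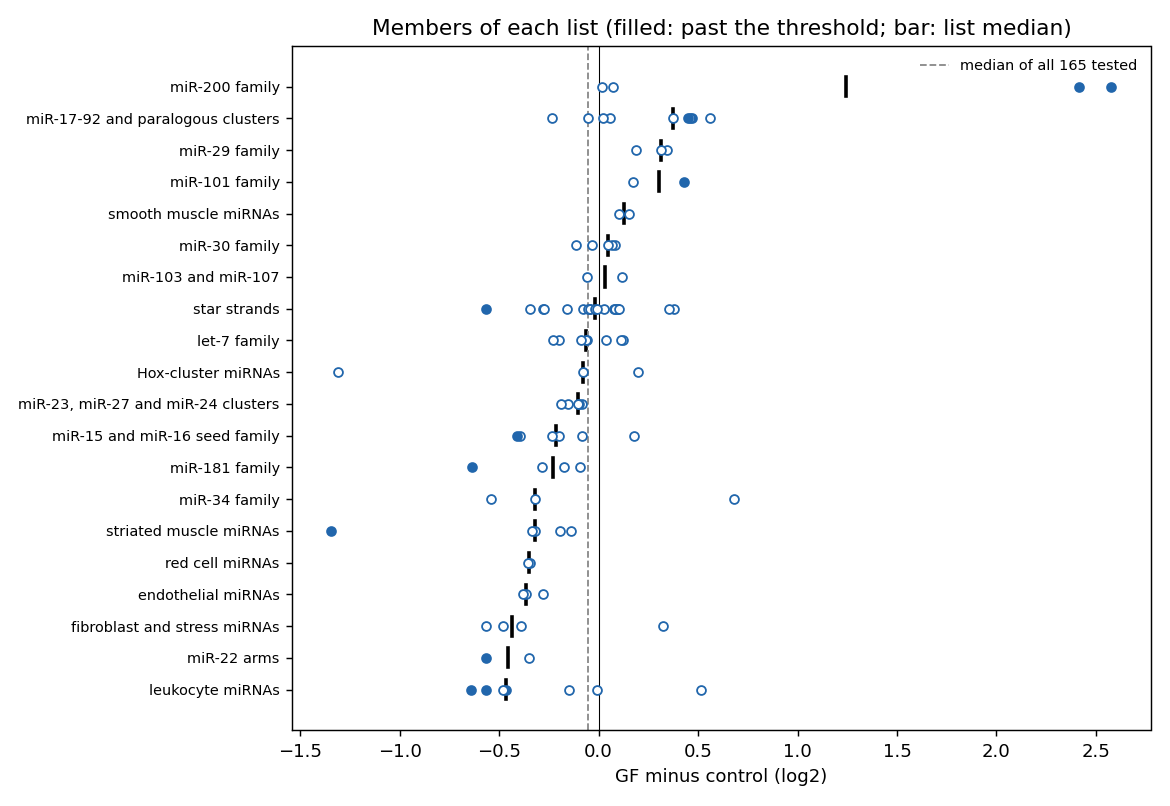
GF minus control (log2) of the tested members of each list of related miRNAs (points, filled where past the threshold), with each list's median (bar) and the median of all 165 tested, -0.055 (dashed). The miR-200 family spans 0.016 to 2.58, the miR-34 family -0.54 to 0.68, and the 5 striated muscle miRNAs lie from -1.34 to -0.14.

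Over the 165 miRNAs, 67 differences were above 0 and 97 below, the median size of a difference was 0.17, and 102 were under 0.25 in size. The median SE was 0.11. GF and control samples did not overlap for 44 miRNAs (26.7%), with GF above in 12 (7.27%) and below in 32 (19.4%). The 51 miRNAs with an unadjusted p under 0.05 comprised 15 higher and 36 lower. Among the 136 miRNAs with a RefSeq sequence, the median GC content was 45.5%, against 39.1% in the 5 that rose and 42.2% in the 8 that fell. Over the 136, the rank correlation of GC content with the difference was weak (Spearman -0.09).

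The count of 13 depends on how samples are counted and on single samples. It fell to 0 when the next closest arrays were merged too (27 at an unadjusted p under 0.05 in limma). With the 15 arrays taken as independent, 60 miRNAs passed (36.4%), 21 higher (12.7%) and 39 lower (23.6%), and with the replicate number of the labels as a block 50 passed (18 higher, 32 lower). All 13 were among each of these, but both fits count closely repeating arrays separately, so that overlap supports nothing. With only GF and control samples in the fit, 11 passed (4 higher, 7 lower) and 9 of the 13 remained; miR-20a, miR-19b, miR-181d and miR-345-5p missed the threshold there (adjusted p = 0.0615 each). Without control replicate 5, 28 passed (17%), again with all 13; 15 of the 28 were higher (9.09%) and 13 lower (7.88%). limma called 0 miRNAs when the averaged control replicates 1 and 3 were left out (40 at an unadjusted p under 0.05), and also 0 without control replicate 2 (47 unadjusted), without control replicate 4 (36 unadjusted) and without the averaged GF replicates 2 and 4 (29 unadjusted). It called 8 without GF replicate 6, all among the 13, and 24 without DM replicates 3 and 5, which include the 13.

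Scaling moved the balance of directions. Before scaling, GF arrays had a 75th percentile of 2780 ± 529 (SD, n = 3) against 2205 ± 261 (SD, n = 4) for control, a difference of 575 (two-sided exact permutation p = 0.171, and 0.0635 over the 5 arrays of each group). It was 835 on slide 1 and 437 on slide 2. With no scaling between arrays the median difference of all tested miRNAs was 0.24, and 16 were called higher and 2 lower. With scaling to all probes the median was 0.075 and the split 15 to 1, and with quantile normalization it was 0.025 and 10 to 5. Under all 3, the 5 miRNAs that rose and miR-208 remained past the threshold. None of the 13 changed sign, but the other 7 that fell did not pass with either of the first 2 scalings, so their lower values are relative to the scaled signal.

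**Figure D5:**
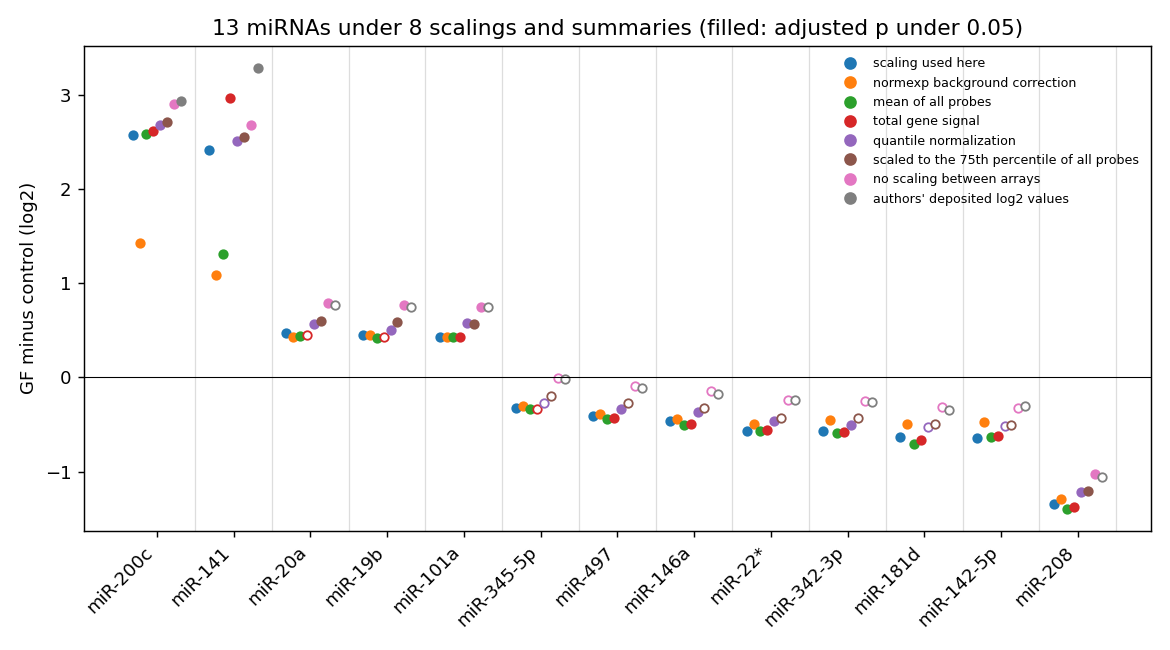
GF minus control (log2) of the 13 miRNAs under 8 ways of scaling or summarizing the arrays (colours; filled where the adjusted p was under 0.05). miR-200c, miR-141, miR-20a, miR-19b and miR-101a lie above 0 and the other 8 below 0 in each, and the difference of miR-345-5p is -0.0080 with no scaling.

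Taken within slides, the difference of miR-200c was 3.03 on slide 1 and 2.40 on slide 2, and that of miR-208 was -1.69 and -1.27. The closely repeating arrays lie on different slides, so the slides share samples and are not independent of each other.

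The DM samples show where the 13 stood in diabetes without the fast and insulin. DM and GF are set against the same control samples here, so both differences are given side by side. The DM mean lay between the control and GF means for all 13 and for 85 of all 165 tested (51.5%), but the 13 were chosen for a wide gap between those means, so nothing is read from that count. miR-200c was 6.28 in DM replicate 1, 6.01 in DM replicates 2 and 4, and 8.12 in DM replicates 3 and 5, and differed from control by 1.51 in DM and 2.58 in GF. miR-208 was 11.32, 11.47 and 10.29 in these samples and differed from control by -0.56 in DM and -1.34 in GF. DM replicates 3 and 5 lay within or past the GF range for 6 of the 13 (miR-200c, miR-141, miR-20a, miR-19b, miR-208 and miR-22*), and the other DM samples for none.

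GF against DM, limma called 0 of 165 miRNAs (0%), with 18 at an unadjusted p under 0.05 and a lowest adjusted p of 0.272, and DM against control 0 (0%), with 14 unadjusted. miR-146a came among the nearest, with 10.75, 10.85 and 10.51 in DM and a GF minus DM difference of -0.37 ± 0.10 (SE; adjusted p = 0.272). miR-342-3p was 7.26, 7.26 and 7.29 in DM, above every GF sample (difference -0.40 ± 0.11, SE; adjusted p = 0.272). Without DM replicates 3 and 5, 4 of the 13 passed against DM, namely miR-141 (1.97), miR-142-5p (-0.74), miR-146a (-0.46) and miR-208 (-1.15). Averaged, those replicates were the DM sample nearest to GF for 11 of the 13, including these 4. Leaving them out therefore widens the gap, and those calls support nothing. With any other sample left out, 0 of the 13 passed against DM. With 15 arrays taken as independent 5 passed, miR-142-5p, miR-146a, miR-181d, miR-342-3p and miR-497, all lower in GF. That fit counts closely repeating arrays separately, and with those arrays as a random block 0 of the 13 passed against DM.

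The authors' deposited table for this comparison lists 30 miRNAs, 29 higher in GF and 1 lower, miR-208. Its p-values come from an uncorrected test over all 3 groups, per the file headers. All 30 were tested here; 5 passed over distinct samples, 4 higher and 1 lower, and 19 with 15 arrays taken as independent. The median GF minus control difference was 0.25 with the authors' deposited log2 values and 0.24 here with no scaling between arrays. In 29 of the 30 the direction was the same. The exception, miR-184, has a log2 difference of 2.31 in the authors' deposited table and lay at the floor in both groups here. Of the 13 miRNAs called here, 8 are not in the authors' deposited table: miR-19b and, among those that fell, miR-142-5p, miR-146a, miR-181d, miR-22*, miR-342-3p, miR-345-5p and miR-497.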

How the data were processed

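Total RNA (100 ng, Cy3) was hybridised to 1-colour Agilent miRNA arrays, per the labels' protocols, and read with Feature Extraction 9.5.3.1, per the file headers. Each deposited array file gives a background-subtracted intensity for every spot, with no scaling from array to array. The authors' deposited tables hold log2 values of filtered miRNAs, and log2 fold changes with a p-value per miRNA.

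Flagged spots were dropped. The gProcessedSignal was scaled to each array's 75th percentile over 254 probes (those above background on every one of the 15 arrays), given a floor (4.31), and put on the log2 scale. The brightest probe stood for a miRNA, tested where well above background on 3 of 5 arrays of 1 group. Arrays of 1 group with a reduced chi-square under 1, a limit set with the data known, were averaged. limma 3.58.1 (R 4.3.3) was fitted over the 10 distinct samples of all 3 groups, two-sided, with Benjamini-Hochberg adjustment over the 165 miRNAs and a threshold of 0.05. The fit was tested on simulated independent samples, with changes larger than those of most miRNAs called here. That test therefore says nothing about differences of their size. The normexp alternative (offset 50) used the median signal, since the files used hold no mean signal. The number of arrays limits the precision.

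Control and GF share replicate numbers 1, 2, 4 and 5. The labels do not say what the numbers mean. Same-numbered arrays deviated together (correlations of deviations from the group means 0.211, 0.148, 0.290 and 0.474). For each of these 4 GF arrays, the same-numbered control array had the highest such correlation among the control arrays. Same-numbered arrays also share a slide, but control arrays with other numbers lie on that slide too. What the numbers mark was not tested, so no pairing is established. The replicate block is given only as an alternative over 15 arrays, and it counts closely repeating arrays separately.

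Named are the miRNAs past the threshold, the 8 largest differences in each direction among those past it only over 15 arrays, their seed, hairpin and cluster relatives, list members (up to 5, otherwise the 4 largest) and the 8 brightest. The members and lists were chosen with earlier results of these data known. Sequences were matched by name to RefSeq for 136 miRNAs and not for 29. Tables used Python 3.11.15, pandas 2.3.3, numpy 2.4.6 and scipy 1.17.1, and figures matplotlib 3.10.9.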

Additional observations from a re-analysis of the deposited data

Results flagged for a closer look

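In the 4 distinct control samples, the highest or lowest value was tested for its gap to the others for 29 miRNAs. Of these, 8 were picked out. Chance picks out about 1 in 20 independent groups, but the 29 share the same samples and were chosen by their GF against control results. The 8 are therefore not separate findings, and their number cannot be set against that rate. Control replicate 5 was the far sample in 7 of them. It was the highest control for miR-141 (5.255), miR-200c (6.341), miR-199a-5p (9.527), miR-199a-3p (11.988), miR-34a (11.003) and miR-19a (7.754), and the lowest for miR-196c (5.682). Its value lay toward GF for miR-141, miR-200c, miR-34a, miR-19a and miR-196c, and away from GF for miR-199a-5p and miR-199a-3p. For miR-141 the other 3 control samples lie at the floor, which sets the gap. Control replicate 4 was the highest control for miR-22* (8.681), away from GF.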

How the results depend on the processing

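The count of miRNAs past the threshold between GF and control was 13. It was 60 with 15 arrays taken as independent, 57 with slide as a block and 50 with the replicate block, 21 when the probes of a miRNA were averaged and 2 with the authors' deposited log2 values. It was 0 with the next closest arrays merged too (27 at an unadjusted p under 0.05 in limma) and 0 with no filter on dim probes (46 unadjusted). Leaving out 1 sample gave 0 to 28. The other settings gave 11 to 18. Of the 13, those past the threshold against DM were 0, and 5 with 15 arrays, 4 with slide as a block, 1 each with the replicate block, normexp and no scaling, and 0 to 4 when 1 sample was left out. Those past it between DM and control were 0, and 1 with 15 arrays, 1 with slide as a block and 2 with the replicate block. miR-296* turned sign with normexp (-0.044, adjusted p = 0.880). The difference in brightness (575) ran from 406 to 880 when 1 sample was left out. Over 26 alternatives miR-200c and miR-141 each passed in 20, miR-208 in 19 and miR-345-5p in 10. Causes were not tested. Signals near the floor, as for miR-141 in control, give no size on that side.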

Other observations

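Some miRNAs were too dim to be tested but were detected by the scanner software on more GF than control arrays. let-7e*, the other arm of the let-7e hairpin, was detected on 5 GF, 2 control and 1 DM arrays. let-7b* was detected on 3 GF, 0 control and 2 DM arrays, and miR-101a*, the other arm of the miR-101a hairpin, on 3 GF, 0 control and 1 DM arrays. These were chosen for naming after their values were seen and were not tested. Untested miRNAs detected on more control than GF arrays were not counted, so the 3 show no general direction. Detection was set on each array before scaling, where the GF arrays were on average brighter. Of all 350 miRNAs, 166 to 188 were detected on control arrays and 166 to 190 on GF arrays.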
